A study of Homo sapiens with 3 samples.

Results

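The 31 genes described here encode the sensors, regulators and best known targets of the unfolded protein response and the integrated stress response. They were taken from a list of gene symbols, and all 31 were found among the 32732 genes shared by the 3 deposited feature tables. By textbook role, 13 belong to the ATF4 arm, 15 to the ATF6 and XBP1 arms (called the ER arms from here on), and 3 encode the stress sensors of the endoplasmic reticulum (ER). The data are single-cell UMI counts (unique molecular identifiers, 1 per captured transcript) from a chemical conversion of BJ cells, an established human foreskin fibroblast line with wild type genotype, towards neurons. There are 3 libraries, 1 per group. The day 0 library holds BJ cells, labelled fibroblasts. The day 3 and day 5 libraries hold FiN cells, the study's name for the converted cells, labelled induced neurons. Per the labels, cells on poly-D-lysine received an induction medium with 10 µM forskolin, an activator of adenylyl cyclase, then from day 2 a maturation medium with forskolin, and lost forskolin on day 5. The labels give all 3 libraries the treatment "reprogramming", and whether day 0 cells had met the medium, or day 5 cells the withdrawal, was not given in the sources used here. All cells come from 1 line, and 1 library per group allows no estimate of variation between cultures, so no test was run.

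Misfolded protein in the ER releases the chaperone BiP from 3 membrane sensors. PERK (EIF2AK3) phosphorylates the initiation factor eIF2, as do other kinases that answer amino acid shortage, haem shortage or viral RNA, and this favours translation of ATF4, which drives genes of amino acid supply, redox balance and cell death. IRE1 (ERN1) splices the XBP1 message, and ATF6 is cut in the Golgi; both then act in the nucleus on genes of ER chaperones, disulphide exchange and degradation of misfolded ER proteins. Secretory cells such as fibroblasts keep these ER genes active to fold collagen and other secreted proteins. Gene counts show neither splicing of XBP1, cleavage of ATF6, phosphorylation of eIF2 nor translation of ATF4, so the values below are transcript levels of the members alone.

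The promoter letters of the members are described here by arm. The arms were set by textbook role, which may itself rest on such elements, so the counts are no independent evidence that the arms differ. The windows are RefSeq promoters (build GRCh38.p14, from 250 bases before to 50 after the annotated start), and 30 of the 31 members had 1. Searched on both strands were the ER stress response element ERSE (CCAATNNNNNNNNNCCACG), its second form ERSE-II (ATTGGNCCACG), the unfolded protein response element UPRE (TGACGTGG), the C/EBP-ATF composite element CARE (TGATGNAA) and the cAMP response element CRE (TGACGTCA). An ERSE, ERSE-II or UPRE was present in 8 of 15 promoters of the ER arms, in 0 of 12 of the ATF4 arm and in 0 of 3 of the sensors, against 0.927% of all 27305 promoters. ERSE was in 5 of these 15 (HSPA5, XBP1, HSP90B1, CALR and CRELD2) against 0.0806% of all promoters, and ERSE-II was in 3 (HERPUD1, SDF2L1 and HYOU1) against 0.0549%. The UPRE letters were in HYOU1, where they overlap an ERSE-II match, against 0.795% of all promoters. CARE was in ASNS, CHAC1 and HERPUD1 against 3.67%, and CRE was in PPP1R15A against 1.98%. A match is a description of letters, not of a bound site, and a promoter without a match is not thereby without the factor.

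The 250 bases before the start are shown for the 6 members that hold a searched motif and had the largest called ratios, and for HSPA5, the gene of BiP, added after its values were seen because its level stayed close across the libraries. Capitals mark the fixed letters of the motifs. The windows are PPP1R15A chr19:48872171-48872420 (plus strand, CRE), ASNS chr7:97872409-97872658 (minus strand, CARE), SDF2L1 chr22:21642052-21642301 (plus strand, ERSE-II in the reverse direction), HERPUD1 chr16:56931892-56932141 (plus strand, CARE in the reverse direction, then ERSE-II), CALR chr19:12938359-12938608 and CRELD2 chr22:49918384-49918633 (plus strand, ERSE in the reverse direction) and HSPA5 chr9:125241344-125241593 (minus strand, ERSE).
PPP1R15A: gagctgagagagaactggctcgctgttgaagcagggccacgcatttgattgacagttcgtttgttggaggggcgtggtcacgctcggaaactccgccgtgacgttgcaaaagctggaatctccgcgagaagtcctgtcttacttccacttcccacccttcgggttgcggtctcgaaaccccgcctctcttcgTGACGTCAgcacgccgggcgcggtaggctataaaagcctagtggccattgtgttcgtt
ASNS: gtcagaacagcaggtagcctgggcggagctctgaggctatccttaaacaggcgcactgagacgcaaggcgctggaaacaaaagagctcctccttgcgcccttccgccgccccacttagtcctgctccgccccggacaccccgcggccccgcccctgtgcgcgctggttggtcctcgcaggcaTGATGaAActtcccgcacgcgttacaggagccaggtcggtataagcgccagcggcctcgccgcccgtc
SDF2L1: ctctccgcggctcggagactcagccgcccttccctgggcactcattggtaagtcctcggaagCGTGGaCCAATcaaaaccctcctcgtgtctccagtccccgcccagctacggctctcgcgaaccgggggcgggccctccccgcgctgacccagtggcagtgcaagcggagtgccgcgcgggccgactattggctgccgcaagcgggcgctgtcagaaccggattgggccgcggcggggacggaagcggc
HERPUD1: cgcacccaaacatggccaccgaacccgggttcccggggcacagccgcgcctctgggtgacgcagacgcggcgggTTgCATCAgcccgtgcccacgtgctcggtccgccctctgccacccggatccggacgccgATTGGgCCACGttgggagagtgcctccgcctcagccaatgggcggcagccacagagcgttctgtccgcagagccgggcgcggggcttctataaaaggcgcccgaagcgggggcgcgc
CALR: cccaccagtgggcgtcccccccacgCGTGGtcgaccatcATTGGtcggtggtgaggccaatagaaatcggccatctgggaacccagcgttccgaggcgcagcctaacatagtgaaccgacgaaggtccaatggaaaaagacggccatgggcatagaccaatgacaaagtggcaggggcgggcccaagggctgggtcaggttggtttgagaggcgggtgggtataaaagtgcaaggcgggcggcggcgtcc
CRELD2: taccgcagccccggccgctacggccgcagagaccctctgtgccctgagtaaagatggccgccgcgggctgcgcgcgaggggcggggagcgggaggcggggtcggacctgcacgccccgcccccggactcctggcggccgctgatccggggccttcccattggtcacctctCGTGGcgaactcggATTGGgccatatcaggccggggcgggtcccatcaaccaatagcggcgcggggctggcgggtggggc
HSPA5: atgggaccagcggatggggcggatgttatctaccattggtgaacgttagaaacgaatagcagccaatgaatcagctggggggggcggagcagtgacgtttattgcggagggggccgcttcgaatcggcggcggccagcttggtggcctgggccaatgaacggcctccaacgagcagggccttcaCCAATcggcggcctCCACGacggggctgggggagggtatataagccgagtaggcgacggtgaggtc
PPP1R15A and ASNS belong to the ATF4 arm and the other 5 genes to the ER arms. The ERSE of HSPA5 began 66 bases before the start, that of CRELD2 80 bases and that of CALR 225 bases before it, and the CRE of PPP1R15A began 58 bases and the CARE of ASNS 68 bases before their starts.

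The libraries differed in much more than the day. After filtering they held 16773, 11454 and 9221 cells at days 0, 3 and 5, with 246546451, 18743865 and 51712830 UMIs and a median of 14039, 1324 and 4374 UMIs per cell. Mitochondrial genes took 6.45%, 0.745% and 5.01% of UMIs, ribosomal protein genes 17.0%, 4.29% and 2.13%, and the nuclear RNA MALAT1 3.14%, 21.6% and 7.35%. Per the labels, nuclei were suspended for days 0 and 3 while cells were dissociated for day 5, so preparation and day cannot be told apart. The same labels name a kit for chromatin accessibility for days 0 and 3, although the matrices hold gene counts, and the mitochondrial, ribosomal and MALAT1 shares of day 0 are unlike those of day 3. Whether these libraries hold nuclei or cells is therefore unsettled, and a ratio of day 3 over day 0 may compare different preparations. Cells of the libraries shared few barcodes (63 between days 3 and 0, 27 between days 5 and 3, and 47 between days 5 and 0). As a check of the labels, 14 fibroblast markers summed to 5196, 8204 and 367 CPM at days 0, 3 and 5 (COL1A1 at 2027, 380 and 10.3 CPM), and 15 pan-neuronal markers to 94.3, 52.6 and 4232 CPM (MAP2 at 1.87, 2.24 and 960 CPM). At day 3, labelled induced neurons, 5 of the 15 were at 0 UMIs, and SYT1, a synaptic vesicle protein, made up much of the sum at day 0, with 66.0 CPM, and was lower at day 3 than at day 0 by 3.29-fold. Without SYT1 the other 14 summed to 28.4, 32.5 and 3050 CPM, so days 0 and 3 were both far below day 5.

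Levels are in CPM, the usual scaling of a gene's UMIs, summed over the kept cells of a library, by that library's UMIs on the shared genes, with exact Poisson 95% intervals in parentheses that cover counting error only. The word higher or lower is used of a gene between libraries only where its CPM differed at least 2-fold, its intervals were apart and 1 of the libraries reached 10 CPM. Genes that reached 10 CPM in either library of a pair are the genes compared, and shares are given over them. The 3 comparisons share libraries, so they are not independent of each other. In these pooled cells, fewer cells of a type and less RNA per cell cannot be told apart.

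Relative to library totals, the ATF4 arm split in both directions between days 0 and 3 while the ER arms kept close levels. Under TMM scaling, described below, there was no such split. There 1 member of the ATF4 arm was higher and 8 were lower at day 3 than at day 0. Of the 15 members of the ER arms, 11 were lower, and of all genes compared under TMM 4863 of 10462 were lower. At day 5 the ATF4 arm was far below both earlier libraries while most members of the ER arms were within 2-fold of them. Under TMM, though, 12 members of the ER arms were lower than at day 0, where 5233 of 12165 genes compared were. The ATF4 arm gained calls as lower there too, for TRIB3, CHAC1 and SESN2. The summed level of the ATF4 arm was 618 CPM (615 to 621) at day 0, 704 CPM (692 to 717) at day 3 and 176 CPM (173 to 180) at day 5. That of the ER arms was 2510 CPM (2504 to 2516), 2741 CPM (2718 to 2765) and 2117 CPM (2105 to 2130). The first sum is thus lowest at day 5 by a wide margin, and the second varies little.

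**Figure D1:**
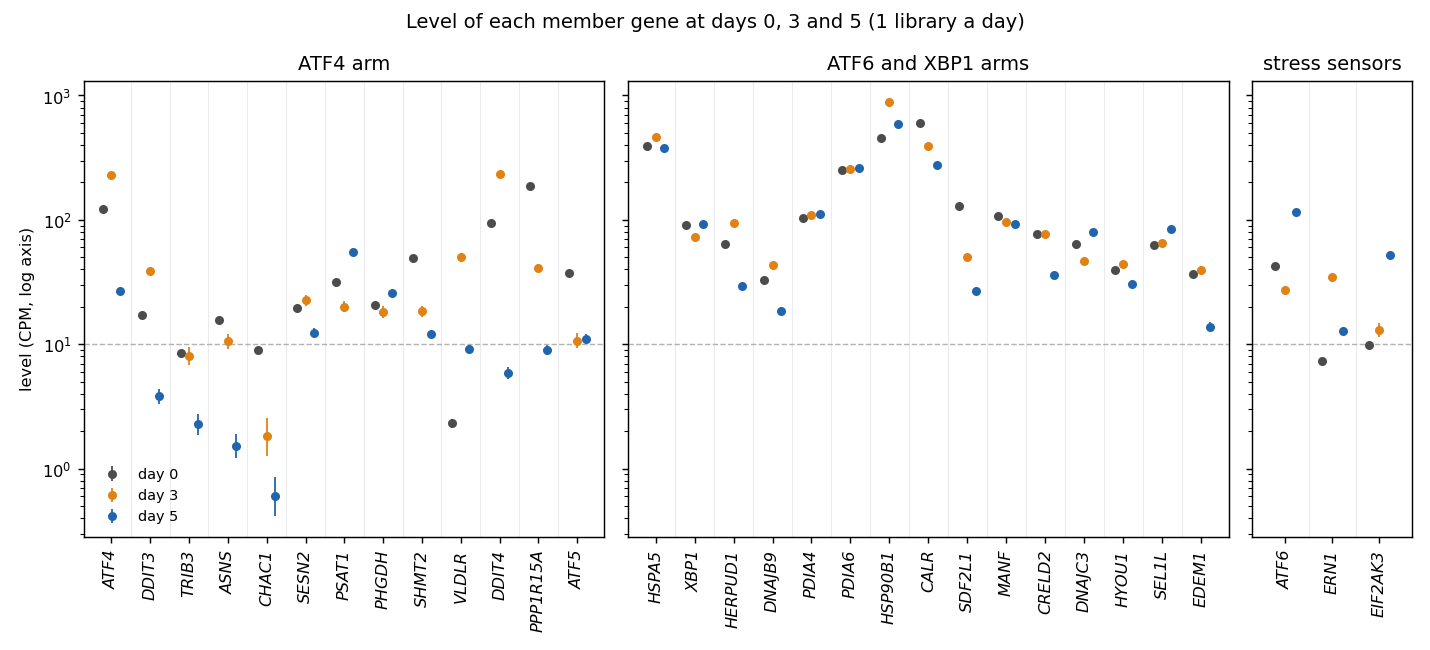
Level of each of the 31 members in CPM (log axis) at days 0, 3 and 5, 1 library a day, in panels for the ATF4 arm, the ER arms (ATF6 and XBP1) and the stress sensors. Bars are exact Poisson 95% intervals and the dashed line marks 10 CPM. Most ATF4 arm genes have their lowest point at day 5, DDIT4 at 5.89 CPM, while PDIA4 and PDIA6 have nearly the same 3 points.

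ATF4 itself, the transcription factor of the arm, was at 123 CPM (122 to 125) at day 0, 231 CPM (224 to 238) at day 3 and 26.9 CPM (25.5 to 28.3) at day 5. Day 5 was lower than both, 8.60-fold below day 3 and 4.60-fold below day 0, while the day 3 level was 1.87 times that of day 0 and missed the 2-fold limit. The order of days 0 and 3 depends on the processing. The log2 ratio of ATF4 at day 3 over day 0 was -0.29 under TMM, not called. With cells thinned to 1000 UMIs it was 1.11, called higher. DDIT3, which encodes CHOP, a partner of ATF4 in stress-induced cell death, was at 17.2 CPM (16.7 to 17.7), 38.6 CPM (35.8 to 41.5) and 3.81 CPM (3.29 to 4.38) at days 0, 3 and 5. CHOP message was thus higher at day 3 than at day 0, a call that ended under TMM, and lower at day 5 than at either. ATF5, a factor of the same family that is regulated at translation like ATF4, differed from both, at 37.5 CPM at day 0 and close values of 10.7 and 11.1 CPM at days 3 and 5.

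Among feedback and growth-control genes of the arm, PPP1R15A and DDIT4 had large differences, while SESN2 and TRIB3 were not called relative to library totals. PPP1R15A, or GADD34, the subunit that directs a phosphatase to eIF2 and so ends the response, was at 188 CPM (187 to 190) at day 0, 41.0 CPM (38.2 to 44.1) at day 3 and 9.05 CPM (8.24 to 9.92) at day 5. Each later library was lower, 4.59-fold at day 3 and 20.8-fold at day 5 relative to day 0. DDIT4, or REDD1, an inhibitor of mTORC1, was at 94.9 CPM (93.7 to 96.1), 233 CPM (226 to 240) and 5.89 CPM (5.24 to 6.60). It was higher at day 3 than at day 0 by 2.46-fold, a call that ended under TMM with a log2 ratio of 0.10, and 39.5-fold lower at day 5 than at day 3, the largest ratio among the 31 members. SESN2, which signals leucine shortage to mTORC1, stayed within 2-fold at 19.5, 22.6 and 12.4 CPM. TRIB3, a pseudokinase that restrains ATF4, was at 8.48, 8.12 and 2.28 CPM, and CHAC1, which degrades glutathione, at 9.07, 1.82 and 0.609 CPM. Neither reached 10 CPM in any library with library totals, so both are outside the genes compared there. Under TMM both were called lower at days 3 and 5 than at day 0.

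The amino acid genes of the arm did not move together. ASNS, asparagine synthetase, was at 15.6 CPM (15.1 to 16.1) at day 0, 10.6 CPM (9.21 to 12.2) at day 3 and 1.53 CPM (1.21 to 1.91) at day 5, so day 5 was lower than day 0 by 10.2-fold. The serine pathway differed. PHGDH, its first enzyme, was at 20.8, 18.1 and 26.0 CPM and was within 2-fold in each comparison, and PSAT1, the next enzyme, was at 31.8, 20.04 and 55.6 CPM and was higher at day 5 than at day 3 by 2.77-fold. SHMT2, the mitochondrial enzyme that turns serine into glycine, was at 49.1, 18.4 and 12.1 CPM and was lower at both later days than at day 0. VLDLR, a lipoprotein and reelin receptor, was at 2.31 CPM (2.13 to 2.51), 50.3 CPM (47.2 to 53.7) and 9.17 CPM (8.36 to 10.0). Its day 3 level was 21.8 times that of day 0, the largest upward ratio of a member. PSAT1 was the only member of this arm called higher at day 5 in a comparison. VLDLR was under 10 CPM at both days 0 and 5, so that pair is outside the genes compared.

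Among the chaperones of the ER lumen, BiP had the closest level relative to library totals. HSPA5, which encodes BiP, was at 395 CPM (392 to 397) at day 0, 463 CPM (453 to 473) at day 3 and 376 CPM (371 to 381) at day 5. HSP90B1, which encodes GRP94, was at 458, 890 and 589 CPM, and its day 3 level was 1.94 times that of day 0, just under the limit. CALR, the calcium-binding chaperone calreticulin, was at 598, 392 and 277 CPM and was lower at day 5 than at day 0 by 2.16-fold, a call that ended with a log2 ratio of -0.64 when cells were thinned to 1000 UMIs. BiP message stayed within 1.23-fold in each of the 3 comparisons with library totals, but was called lower at day 5 than at day 0 under TMM, with a log2 ratio of -1.21. HYOU1, a BiP nucleotide exchange factor, was at 39.8, 44.2 and 30.3 CPM.

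The disulphide isomerases had the closest levels of the 31 members. PDIA4 was at 103 CPM (102 to 105), 109 CPM (104 to 114) and 111 CPM (108 to 114) at days 0, 3 and 5, and PDIA6 at 252 CPM (250 to 254), 257 CPM (249 to 264) and 259 CPM (255 to 263). For PDIA6 the interval of day 3 overlapped those of both other days. These are levels relative to library totals, and under TMM both genes were called lower at days 3 and 5 than at day 0. MANF, a secreted survival factor that binds BiP, was at 107, 95.7 and 92.7 CPM. CRELD2, an ER protein secreted under stress, was at 76.9, 77.7 and 36.2 CPM, so it matched between days 3 and 0 and was lower at day 5 than at either. XBP1, the factor of its arm, was at 91.0, 73.3 and 92.0 CPM.

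The J-domain and degradation genes were mixed. SDF2L1, a partner of ER J-domain proteins, was at 129 CPM (127 to 130), 50.2 CPM (47.0 to 53.5) and 26.9 CPM (25.5 to 28.4), and was the only member of these arms that was lower at day 3 than at day 0. DNAJB9, a BiP co-chaperone that keeps IRE1 inactive, was at 32.8, 43.0 and 18.6 CPM and was lower at day 5 than at day 3. DNAJC3, also named P58IPK, an inhibitor of eIF2 kinases, was at 64.5, 47.1 and 80.3 CPM with no difference past the limit. HERPUD1 and EDEM1, which act in degradation of misfolded ER proteins, were lower at day 5 than at both earlier days. HERPUD1 was at 64.0, 94.5 and 29.6 CPM and EDEM1 at 36.7, 39.9 and 13.9 CPM. SEL1L, the scaffold of the same degradation complex, was at 63.1, 64.9 and 84.7 CPM and was within 2-fold throughout.

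Of the 3 sensors, PERK and ATF6 had their highest messages at day 5. ATF6 was at 42.3 CPM (41.5 to 43.1), 27.2 CPM (24.8 to 29.6) and 115 CPM (112 to 118) at days 0, 3 and 5, and EIF2AK3 at 9.88 CPM (9.49 to 10.3), 13.1 CPM (11.5 to 14.8) and 52.1 CPM (50.2 to 54.2). Both were higher at day 5 than at either other day, EIF2AK3 by 5.28-fold and ATF6 by 2.73-fold over day 0, but the call of ATF6 over day 0 ended under TMM with a log2 ratio of 0.31. ERN1 was at 7.29, 34.5 and 12.8 CPM, higher at day 3 than at day 0 and lower at day 5 than at day 3. The sensor genes have 65402 to 189887 intron bases (GENCODE 29). Over all genes compared, the median log2 ratio of day 5 over day 0 was -1.11 for 4152 genes with under 20000 intron bases, 1.10 for 5053 genes with 20000 to 100000 and 3.48 for 2879 genes with more. The part of intron length in the sensors' ratios was not tested.

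Set against all genes, at day 3 relative to day 0 the ATF4 arm had 3 members higher (DDIT3, VLDLR and DDIT4) and 3 lower (SHMT2, PPP1R15A and ATF5) of 11 compared, where 37.6% of 10431 genes compared were higher and 19.1% lower. Under TMM the arm had VLDLR alone higher and 8 members lower. These 8 include TRIB3 and CHAC1, which reached 10 CPM under that scaling and are not among the 11. DDIT3 and DDIT4 lost their calls. Of 10462 genes compared under TMM, 1519 were higher and 4863 lower. The ER arms had 0 higher and 1 lower of 15 compared (11 lower under TMM). Of the sensors, ERN1 was higher. The median log2 ratio was -0.20 in the ATF4 arm and 0.04 in the ER arms, against 0.49 over all genes compared. The ATF4 arm was spread as widely as all genes, with an interquartile range of 2.32 against 2.26, and the ER arms were narrow, at 0.43. The ranges within the arms do not depend on how the libraries are scaled.

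At day 5 relative to day 3 the ATF4 arm had 1 member higher (PSAT1) and 6 lower (ATF4, DDIT3, ASNS, VLDLR, DDIT4 and PPP1R15A) of 11 compared, or 54.5% lower, where 36.5% of 12623 genes compared were higher and 28.7% lower. The ER arms had 0 higher and 4 lower of 15 (HERPUD1, DNAJB9, CRELD2 and EDEM1), or 26.7% lower, a share near that of all genes. Of the sensors, ATF6 and EIF2AK3 were higher and ERN1 lower. The median log2 ratio was -1.83 in the ATF4 arm and -0.50 in the ER arms, against 0.16 over all genes compared. Of compared genes with under 20000 intron bases 55.1% were lower. Of the members in that class, 5 of 9 of the ATF4 arm and 3 of 10 of the ER arms were lower. The 9 include CHAC1, which was under 10 CPM and so outside the genes compared, so the 2 shares are not quite alike.

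At day 5 relative to day 0 the ATF4 arm had 0 members higher and 7 lower (ATF4, DDIT3, ASNS, SHMT2, DDIT4, PPP1R15A and ATF5) of 10 compared, or 70.0%, where 49.1% of 12084 genes compared were higher and 26.0% lower. The ER arms had 0 higher and 5 lower of 15 (HERPUD1, CALR, SDF2L1, CRELD2 and EDEM1), or 33.3%. Under TMM 12 of them were lower, where 5233 of 12165 genes compared were. In the ATF4 arm, TRIB3, CHAC1 and SESN2 were then called lower as well. ATF6 and EIF2AK3 were higher. The median log2 ratio was -2.02 in the ATF4 arm and -0.21 in the ER arms, against 0.93 over all genes compared. Of compared genes with under 20000 intron bases 51.9% were lower. Of the members in that class, 7 of 9 of the ATF4 arm and 4 of 10 of the ER arms were lower. Here too the 9 include CHAC1, which was outside the genes compared.

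**Figure D2:**
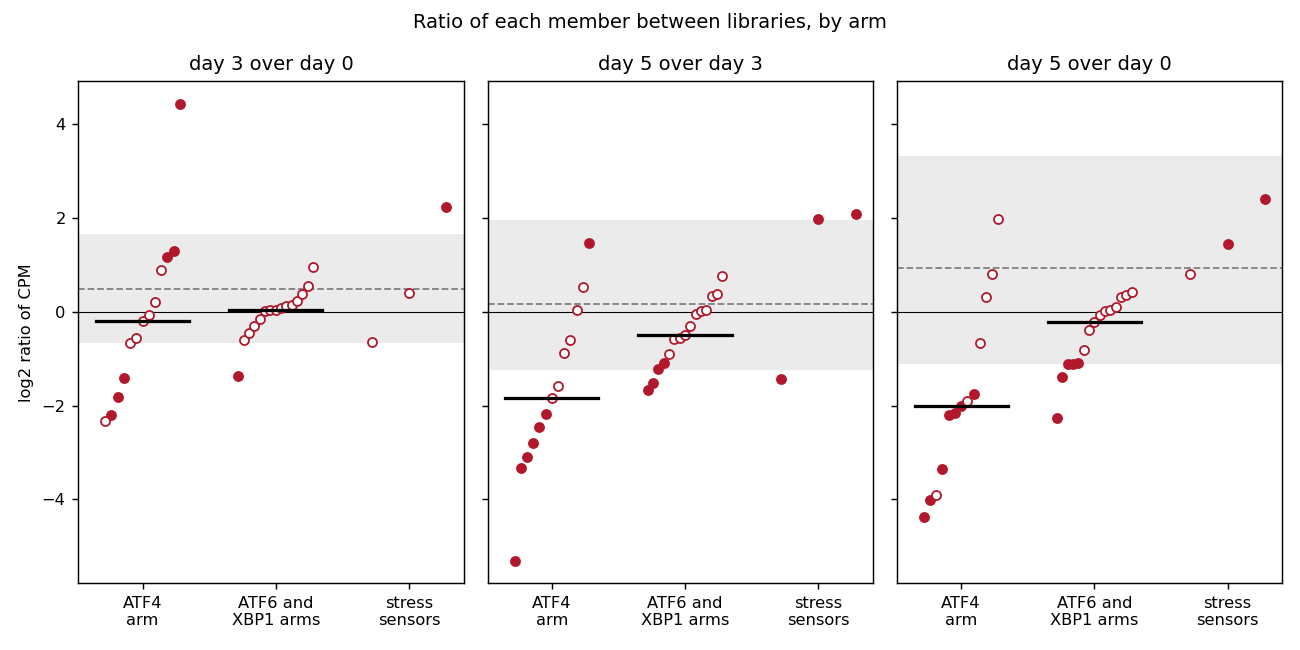
Log2 ratio of CPM of each member in the 3 comparisons, in columns for the 2 arms and the sensors. Filled points passed the limits for higher or lower, open points did not, thick bars are arm medians, the dashed line is the median of all genes compared and the grey band their interquartile range. The bar of the ATF4 arm lies below that of the ER arms in each panel, at -2.02 against -0.21 for day 5 over day 0.

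The difference of the arm medians, ATF4 arm minus ER arms, does not depend on how libraries are scaled. It was -0.24 for day 3 over day 0, -1.33 for day 5 over day 3 and -1.81 for day 5 over day 0. The first of these grew to -0.91 when each cell was thinned to 1000 UMIs and to -1.13 when cells rather than UMIs were weighted equally, and shrank to -0.13 without day 0 clusters 0 and 1, described below. The differences that involve day 5 ranged from -1.51 to -1.30 against day 3 and from -1.87 to -1.64 against day 0 over the alternatives tried. Among members with under 20000 intron bases, the median log2 ratio of day 5 over day 0 was -2.20 in 9 genes of the ATF4 arm. It was -0.61 in 10 genes of the ER arms, against -1.11 over all compared genes of that class. The 9 include CHAC1, which was not among the genes compared.

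How far single members stand above or below 0 does depend on scaling. TMM scaling, which is anchored on a trimmed set of genes, put the median log2 ratio of all genes at -0.86 for day 3 over day 0 and -0.50 for day 5 over day 0, against 0.49 and 0.93 with library totals, and the share of called genes that were higher at 23.8% and 43.1% against 66.3% and 65.4%. Under TMM 8 members of the ATF4 arm and 11 of the ER arms were lower at day 3 than at day 0. At day 5, 12 of the ER arms were lower than at day 0, and TRIB3, CHAC1 and SESN2 joined the ATF4 arm members called lower. Over all genes compared under TMM, 4863 of 10462 and 5233 of 12165 were lower in these comparisons. The calls of DDIT3 and DDIT4 as higher at day 3 than at day 0 ended under TMM, with log2 ratios of -0.03 and 0.10, as did that of ATF6 at day 5 over day 0, at 0.31. With cells thinned to 1000 UMIs, HERPUD1, CALR, CRELD2 and EDEM1 were no longer called lower at day 5 than at day 0, with log2 ratios of -0.62, -0.64, -0.52 and -0.87, and SDF2L1 alone of these arms was. Relative to the median of all genes, the ER arms lay at -0.45 for day 3 over day 0, -0.67 for day 5 over day 3 and -1.14 for day 5 over day 0, and the ATF4 arm at -0.69, -2.00 and -2.95. The levels of the ER arms were thus close as a part of all UMIs, and their medians lay below that of all genes compared in each comparison. Among genes with under 20000 intron bases this order held only for day 3 over day 0. The 10 ER arm members of that class had medians of 0.08, -0.57 and -0.61 in the 3 comparisons as ordered above. All compared genes of the class had 0.13, -1.15 and -1.11. The 9 ATF4 arm members of the class, with CHAC1 included, had medians of -0.55, -2.18 and -2.20 and lay below it in each. The part of intron length was not tested.

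Barcodes of the day 5 library with 500 to 1000 UMIs, too few to be called cells, carried more of both arms than the cells did. There were 50562 such barcodes. The ER arms summed to 5961 CPM in them against 2117 CPM in the called cells, and the ATF4 arm to 390 CPM against 176 CPM. HSPA5 was at 1126 CPM against 376 CPM in cells. The profile of these barcodes could make up at most 15.7% of the cells' UMIs, a bound set by TAGLN. With that share subtracted, 8 members of the ER arms, in place of 4, were lower at day 5 than at day 3. Of all genes compared, 4181 of 12659 were lower with the subtraction and 3627 of 12623 without it. The difference of the arm medians stayed within the range given above.

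Within the day 0 library, a pair of clusters of low depth and low MALAT1 held far less of the ER arms. Cells of each library were clustered without the genes of the stress lists, which gave 6 clusters at day 0. Clusters 0 and 1 held 43.6% of the cells and 5.57% of the UMIs, with a median of 1981 and 907 UMIs per cell and MALAT1 at 0.117% and 0.299% of UMIs, against 2.71% to 3.64% in clusters 2 to 4. Most genes were lower in these clusters than in the other day 0 cells, 59.5% of 8198 genes compared in cluster 0 and 55.3% of 8143 in cluster 1. In cluster 0, all 15 members of the ER arms were lower, and their sum was 415 CPM (402 to 427) against 2602 CPM. In cluster 1 all 15 were lower too, with a sum of 565 CPM (540 to 591) against 2537 CPM. The ATF4 arm stood at 242 CPM (233 to 252) against 635 CPM for cluster 0 and at 298 CPM (280 to 317) against 623 CPM for cluster 1, with 5 and 4 of 10 compared members lower, shares below those of all genes. All 10 immediate early genes were lower in both clusters too, as were 15 and 13 of the 31 other ATF4 targets. HSPA5 was at 36.2 CPM in cluster 0 against 411 CPM in the other cells, while ASNS was at 14.9 against 15.6 CPM, ATF5 at 28.2 against 38.0 CPM and PHGDH at 30.3 against 20.3 CPM. The part of depth and of low nuclear RNA in these differences was not tested.

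Clusters 2, 3 and 4, with deeper cells, had sums near those of the whole library. The ER arms summed to 3004, 2634 and 2230 CPM in them and the ATF4 arm to 639, 674 and 601 CPM. In cluster 3, where all 10 cycling markers were higher than in the other cells, PHGDH was higher at 33.4 CPM against 14.7 CPM. It was 1 of 11 compared members of the ATF4 arm, where 6.21% of 8466 genes compared were higher. In cluster 4 (led by TMEM132B, PAPPA and HSPB7), PHGDH was lower at 7.69 CPM against 26.4 CPM and MANF lower at 59.6 CPM against 128 CPM. Each was the only called member of its arm, of 11 and 15 compared, where 4.72% of 8395 genes compared were lower. Cluster 5, with 190 cells, was also of low depth, at a median of 2856 UMIs, but had MALAT1 at 15.1% and the highest sums, 3971 CPM and 776 CPM. It had DDIT3 at 40.5 against 17.1 CPM, HSP90B1 at 938 against 456 CPM and ERN1 at 19.0 against 7.25 CPM. Only 1 of 11 compared members of the ATF4 arm and 1 of 15 of the ER arms were higher there, where 14.7% of 9030 genes compared were.

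**Figure D3:**
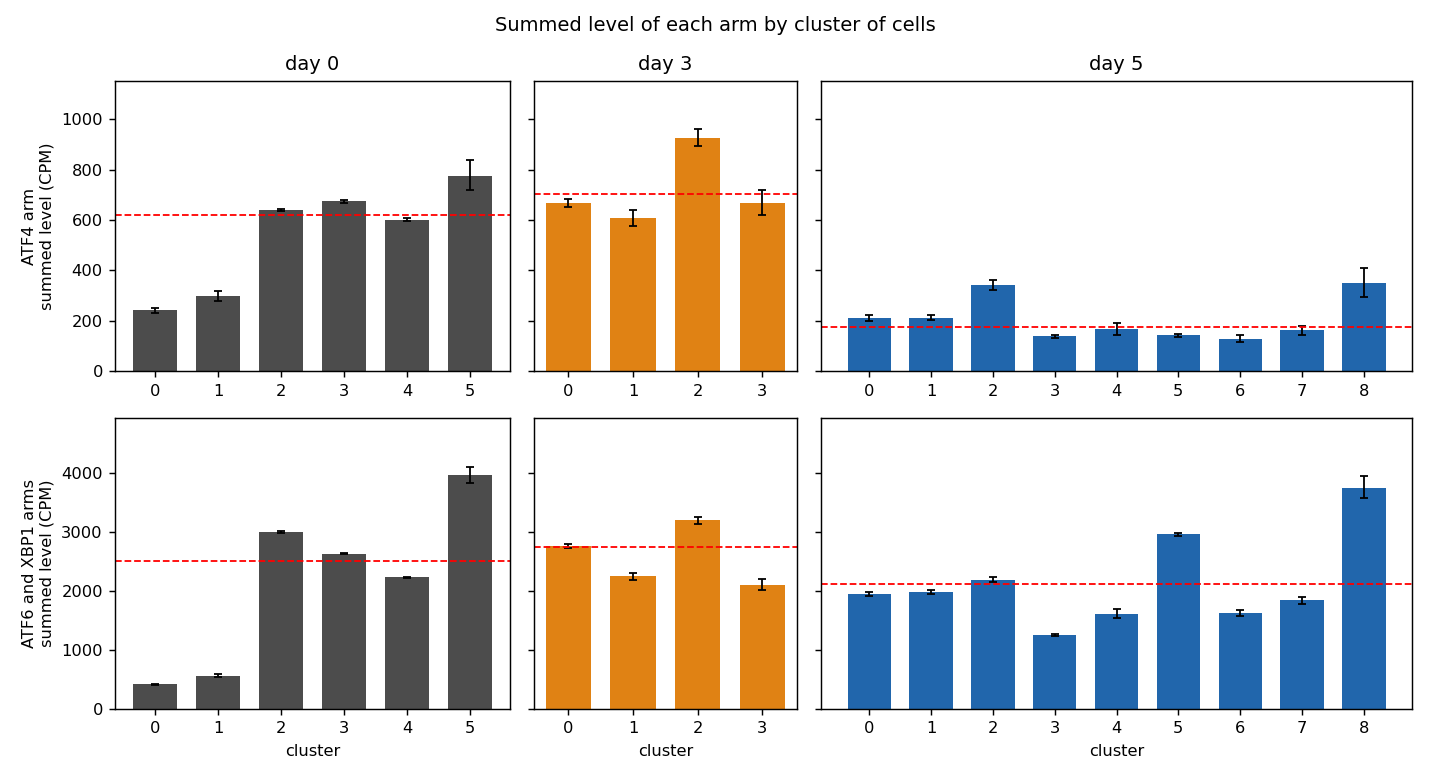
Summed level in CPM of the ATF4 arm (upper row) and of the ER arms (lower row) in each cluster of cells at days 0, 3 and 5, with exact Poisson 95% intervals as bars and the sum over the whole library as a dashed line. Day 0 clusters 0 and 1 have the lowest sums of the ER arms, 415 and 565 CPM, and day 5 clusters 2 and 8 have the highest ATF4 arm sums of that day, 343 and 349 CPM.

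Across single day 0 cells the sums of the arms had a correlation close to 0. In 9536 cells thinned to 5000 UMIs (7237 shallower cells left out), the correlation of the ATF4 arm sum with the ER arm sum was 0.049 (Pearson) and 0.062 (Spearman). These cells share 1 library, so this is a description, and a weak correlation in sparse counts is no finding. It was 0.145 at 2000 UMIs per cell and 0.013 at 8000. Within single clusters of 360 to 3605 such cells it lay between -0.044 and 0.063. In cluster 5, with only 60 such cells, it was -0.218. The sign of the correlation is thus not settled. The same correlation was 0.054 in 8441 day 3 cells and 0.015 in 9221 day 5 cells at 1000 UMIs each. The ratio of variance to mean over the day 0 cells was 3.31 for the ER arms, with a mean of 13.4 UMIs, and 1.62 for the ATF4 arm, with a mean of 3.22 UMIs.

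Pairs of members within the ER arms had the larger correlations. Of 105 such pairs, 30 had a correlation of at least 0.1 over the same cells, with a median of 0.042. The highest were HSPA5 with HSP90B1 at 0.344, HSPA5 with CALR at 0.304, HSP90B1 with CALR at 0.276 and HSPA5 with MANF at 0.242. Of 78 pairs within the ATF4 arm, 2 reached 0.1, namely ATF4 with PPP1R15A at 0.168 and DDIT3 with PPP1R15A at 0.155, and the median was 0.015. Of 195 pairs between the arms, 0 reached 0.1, and the highest was 0.069. Members with more UMIs per cell can show larger correlations, and the part of level in these differences was not tested.

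**Figure D4:**
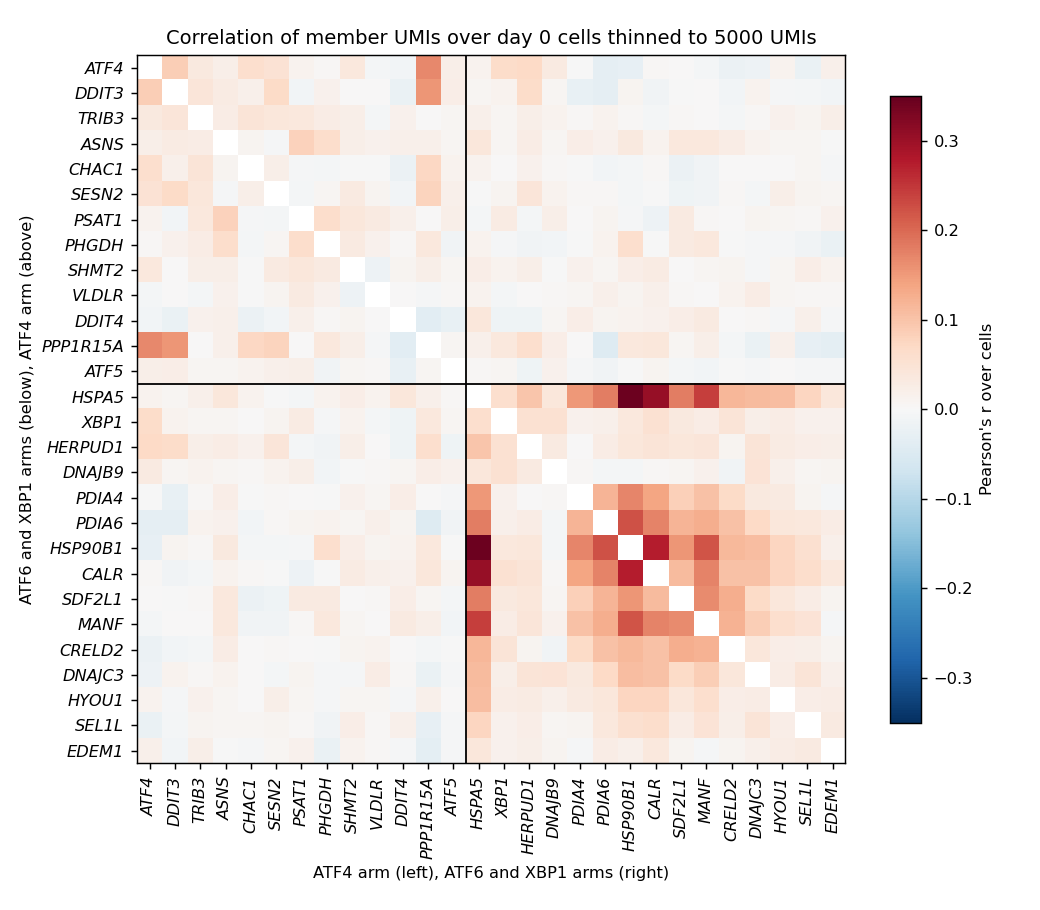
Pearson's correlation of the UMIs of each pair of members over 9536 day 0 cells thinned to 5000 UMIs, with the 13 ATF4 arm genes above and to the left of the black lines and the 15 genes of the ER arms below and to the right. The darkest block joins HSPA5, HSP90B1, CALR, MANF and PDIA6, and the blocks between arms are pale, with no pair over 0.069.

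At day 3, cluster 2 (led by XDH, PCYT1B and SEPT3; 21.8% of cells) had the highest ATF4 arm sum, carried by a few genes. The arm summed to 925 CPM (892 to 959) in it against 659 CPM in the other day 3 cells, and 2 of 11 compared members were higher, VLDLR at 145 against 30.8 CPM and DDIT3 at 76.8 against 30.7 CPM, where 10.7% of 10205 genes compared were higher. ATF4 was at 332 against 210 CPM, within 2-fold, PSAT1 at 12.9 against 21.5 CPM and PHGDH at 12.2 against 19.3 CPM, and the median log2 ratio of the arm was 0.03. The sensor ERN1 was at 59.9 against 29.3 CPM. The ER arms summed to 3200 CPM against 2647 CPM, with 0 members past the limits. MALAT1 took 12.8% of UMIs in this cluster and 23.1% to 25.3% in the other day 3 clusters. The high VLDLR of the day 3 library was thus concentrated in cluster 2, and its level in cluster 0, 33.6 CPM, was still above the 2.31 CPM of day 0.

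At day 5 the larger clusters that were high in an arm were not the same for the ATF4 arm and the ER arms. Cluster 5, the largest with 2770 of 9221 cells (led by CATSPERB, DGKG and TTC6), had the ER arms at 2966 CPM (2940 to 2993) against 1719 CPM in the other day 5 cells and the ATF4 arm at 144 CPM (138 to 150) against 192 CPM. In it 2 of 15 members of the ER arms were higher, XBP1 at 157 against 61.4 CPM and HSP90B1 at 906 against 441 CPM, where 6.67% of 11100 genes compared were higher, while PSAT1 and VLDLR were lower, VLDLR at 2.95 against 12.1 CPM. Cluster 2 (with MIR548XHG and FLI1 among its leading genes), where 5 of the 14 fibroblast markers were higher than in the other cells, was high in the ATF4 arm. There the arm was at 343 CPM (324 to 363) against 164 CPM, and 4 of 10 compared members were higher, where 2.74% of 10969 genes compared were, with TRIB3 at 11.4 against 1.59 CPM, SESN2 at 38.2 against 10.4 CPM, DDIT4 at 12.7 against 5.37 CPM and ATF5 at 44.1 against 8.56 CPM. The ER arms in cluster 2 were close to the other cells, with a sum of 2195 CPM against 2112 CPM and 0 members past the limits.

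Of the day 5 clusters with neuronal markers, cluster 3 had the lowest sum of the ER arms. Clusters 3, 4, 6 and 7, in which 8, 9, 10 and 9 of the 15 pan-neuronal markers were higher than in the other cells, had the ER arms at 1249, 1617, 1628 and 1840 CPM, and the ATF4 arm at 139, 166, 130 and 162 CPM. Clusters 0 and 1, in which 0 of these markers were higher, also lay below the 2117 CPM of the whole library, at 1954 and 1988 CPM, and 0 members of the ER arms were lower in clusters 6 and 7. In cluster 3, 3 of 15 members were lower, where 4.02% of 11066 genes compared were, namely XBP1 at 43.3 against 107 CPM, PDIA4 at 60.7 against 127 CPM and HSP90B1 at 302 against 680 CPM. Cluster 8, with 137 cells, a median of 2863 UMIs and MALAT1 at 2.38%, had the highest sums of both arms at day 5, 3757 CPM for the ER arms and 349 CPM for the ATF4 arm. In it 5 of 8 compared members of the ATF4 arm and 2 of 15 of the ER arms were higher, where 14.1% of 11768 genes compared were, with PPP1R15A at 44.0 against 8.75 CPM, SHMT2 at 37.0 against 11.9 CPM and PDIA4 at 227 against 110 CPM. The highest ATF4 arm sum of a day 5 cluster was below the lowest of clusters 2 to 5 at day 0, which was 601 CPM. It was above the sums of day 0 clusters 0 and 1, 242 and 298 CPM, which held 43.6% of day 0 cells.

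**Figure D5:**
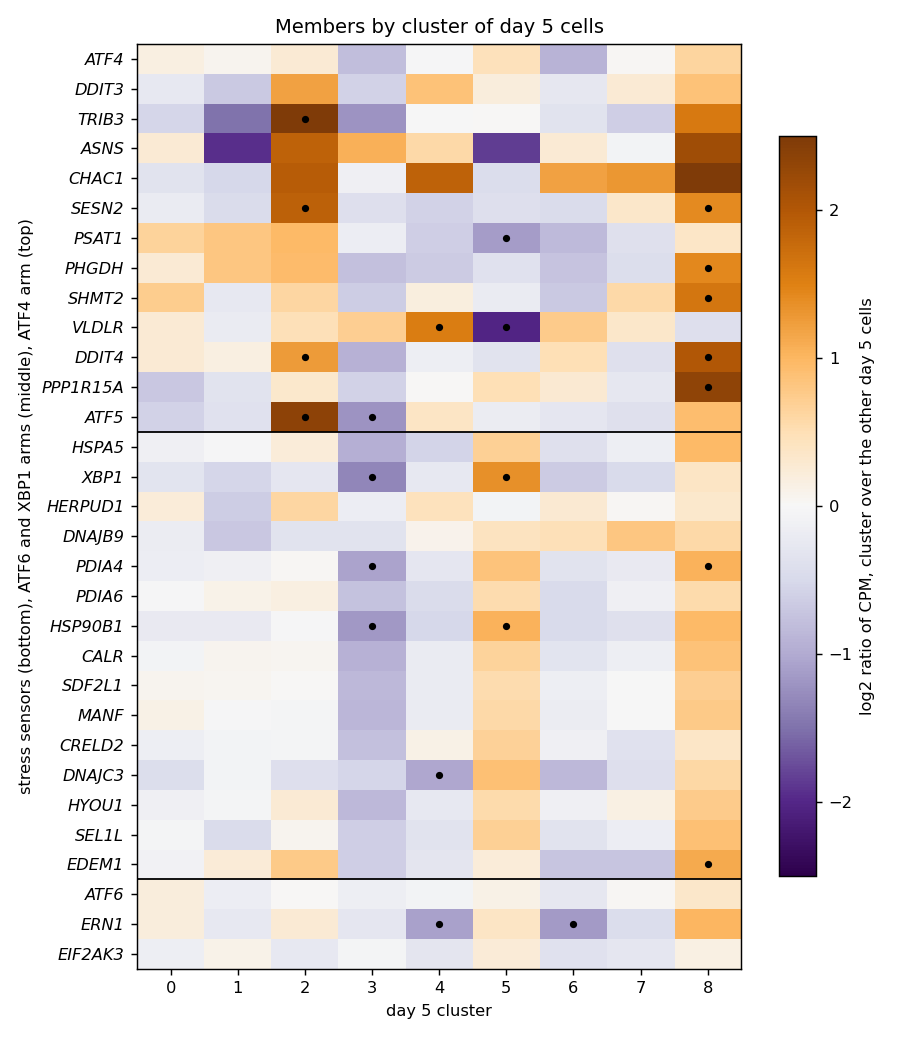
Log2 ratio of CPM of each member in a day 5 cluster over the other day 5 cells (columns are clusters, rows are members in the order ATF4 arm, ER arms, sensors). Dots mark members past the limits for higher or lower. Cluster 2 is high in ATF4 arm genes (ATF5 at 44.1 against 8.56 CPM), cluster 5 in genes of the ER arms (XBP1 at 157 against 61.4 CPM), and cluster 3 is low in genes of the ER arms.

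The share of cells with a UMI gave the same order of days for ATF4 as its level relative to library totals. In cells thinned to 1000 UMIs, ATF4 was seen in 10.0% (9.54 to 10.5, exact binomial 95% interval) of 14382 day 0 cells, 20.5% (19.6 to 21.3) of 8441 day 3 cells and 2.65% (2.33 to 2.99) of 9221 day 5 cells. HSPA5 was seen in 22.8%, 37.0% and 32.3%, where day 0 and day 5 stand in the opposite order to their CPM, so no order is read from it. Without thinning the shares were 52.3%, 29.8% and 13.4% for ATF4 and 58.1%, 50.4% and 77.2% for HSPA5. No cell type in these libraries is known to lack either gene. At day 5 the profile of the 500 to 1000 UMI barcodes, at its highest possible share, could give at most 8.85 of the 26.9 CPM of ATF4 and 177 of the 376 CPM of HSPA5. At 1000 UMIs per cell that is a UMI of ATF4 in at most 0.882% of cells and of HSPA5 in at most 16.2%, by Poisson counting, and both observed shares were above it. No such profile was computed for days 0 and 3.

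Further genes of the same pathways, from lists compiled for this series, show how far the members stand for their groups. As above, 37.6% of all genes compared were higher and 19.1% lower at day 3 relative to day 0, 36.5% and 28.7% at day 5 relative to day 3, and 49.1% and 26.0% at day 5 relative to day 0. Of 31 other ATF4 targets, 8 were higher and 8 lower of 25 compared at day 3 relative to day 0, 7 and 10 of 26 at day 5 relative to day 3, and 4 and 14 of 26 at day 5 relative to day 0. In the last comparison this is 15.4% higher and 53.8% lower. NUPR1, a stress-induced chromatin protein, had the largest ratio of the list, with 2 UMIs or 0.0393 CPM (0.00476 to 0.142) at day 5 against 132 CPM (130 to 133) at day 0, and was lower at day 3 than at day 0 by 4.53-fold. CEBPB, a C/EBP factor that pairs with ATF4, was at 309, 1245 and 1.79 CPM at days 0, 3 and 5, and VEGFA, the angiogenic factor, at 141, 532 and 4.01 CPM. GDF15, a stress-induced secreted hormone, was at 38.1, 425 and 4.32 CPM, and lower at day 5 than at either other day. Relative to library totals, CEBPB, VEGFA and GDF15 thus shared the order of DDIT4, highest at day 3 and lowest at day 5. For DDIT4 the call at day 3 over day 0 ended under TMM, and ratios under TMM are not given here for genes of the lists. ATF3, a stress-induced repressor, and NUPR1 had the order of PPP1R15A, ATF3 at 127, 6.15 and 2.16 CPM. The 4 targets called higher at day 5 than at day 0 were KLHL24 by 6.86-fold, the amino acid transporter SLC1A4 by 4.77-fold, the mitochondrial folate enzyme MTHFD1L by 4.54-fold and the alanine transaminase GPT2 by 3.00-fold, the last 3 named after their values were seen.

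The aminoacyl-tRNA synthetases that ATF4 is known to drive had 0 higher and 5 lower of 12 at day 3 relative to day 0, 1 and 0 at day 5 relative to day 3, and 0 and 4 at day 5 relative to day 0. That is 41.7% and 33.3% lower in the comparisons with day 0. GARS was at 115, 40.1 and 36.2 CPM, and IARS at 144, 45.9 and 121 CPM. Of 40 compared genes of ER folding, translocation and degradation outside the members, 5 were higher and 9 lower at day 3 relative to day 0, 0 and 10 at day 5 relative to day 3, and 3 and 15 at day 5 relative to day 0. The shares lower were near those of all genes in the first 2 comparisons, at 22.5% for day 3 over day 0, and above it at 37.5% for day 5 over day 0. The translocon subunits SEC61B (827, 187 and 66.6 CPM) and SEC61G (681, 224 and 34.5 CPM) were among those with the largest differences. The median log2 ratio of this list was -0.34 for day 5 over day 0, near the -0.21 of the ER arms.

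Upstream of ATF4, the list of eIF2 kinases, phosphatase and eIF2B subunits had 4 higher and 3 lower of 15 at day 3 relative to day 0, 1 and 6 at day 5 relative to day 3, and 2 and 5 at day 5 relative to day 0. The share lower was near that of all genes for day 3 over day 0 and 33.3% for day 5 over day 0. EIF2AK4, or GCN2, the kinase that senses amino acid shortage, was at 206, 50.9 and 63.8 CPM, and was lower at both later days than at day 0. NCK1, an adaptor of the eIF2 phosphatase, was at 26.0, 69.5 and 80.8 CPM.

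Many stress genes outside these pathways were also lower at the later days, though not all. Of 12 cytosolic and mitochondrial heat shock genes, 0 were higher and 7 lower at day 3 relative to day 0, 0 and 6 at day 5 relative to day 3, and 0 and 9 at day 5 relative to day 0, so the share lower was 58.3% at day 3 relative to day 0. HSPB1, a small heat shock protein, was at 500, 73.8 and 13.1 CPM, and DNAJB1, a co-chaperone of HSP70, at 96.4, 15.7 and 5.93 CPM. Of 10 immediate early genes, which respond to handling and dissociation of cells within minutes, 0 were higher and 6 lower at day 3 relative to day 0, 0 and 7 of 8 compared at day 5 relative to day 3, and 0 and 10 at day 5 relative to day 0. At day 3 JUN was not called, with a log2 ratio over day 0 of 0.77. FOSB was at 262, 0.428 and 0.452 CPM and DUSP1 at 677, 125 and 4.48 CPM. PPP1R15A, which is also induced early in such responses, was highest in the same library as FOSB. The part of cell handling in the levels of the ATF4 arm was not tested.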

How the data were processed

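Single-cell gene expression was analysed in 3 libraries (days 0, 3 and 5), 1 per group. The authors deposited UMI counts per gene and barcode, not normalized, and per the submitters' processing notes these come from Cell Ranger 4.0.0 with hg38 (GRCh38). Intron and strand settings of the counting were not given in the sources used here. Each total covers molecules counted, 18743865 to 246546451 UMIs per library after filtering, and 1 UMI is worth 0.00406, 0.0534 and 0.0196 CPM at days 0, 3 and 5.

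The day 5 matrix held 2037119 barcodes and was unfiltered. A barcode was called a cell from 2154 UMIs on, which is 1/10 of the UMIs at percentile 99 among the 10000 largest barcodes, and 9306 were called. Cells of all libraries needed 500 UMIs, 300 genes and at most 20% mitochondrial UMIs. No doublets were removed, and an alternative left out the 5% of cells with most UMIs. UMIs of the 32732 genes shared by Ensembl ID were summed over kept cells. A gene was called at a 2-fold ratio, 10 CPM in the larger library and separate exact Poisson 95% intervals. In ratios, a library under 3 UMIs was set at 3. No test was run and no paired design exists. The rule was also run on simulated counts with genes of known fold change, and the outcome is not given here.

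Each library was clustered alone (scanpy 1.11.5, igraph 0.11.9, 2000 variable genes, 30 components, 15 neighbours, Leiden resolution 0.5) without the genes of the stress lists, and a cluster was set against the other cells of its library by the same rule as libraries. Clusters carry numbers and leading genes (up to 3), not type names, and 1 leading gene is not reported here. Promoters are from RefSeq and intron lengths from GENCODE 29. Alternatives covered scaling (TMM from edgeR 4.0.16 in R 4.3.3, median of ratios, totals without mitochondrial, ribosomal protein and MALAT1 UMIs), cell filters and calls, thinning, mean per-cell CPM, the fold and CPM limits, subtraction of the low-barcode profile, and, added after the data were seen, day 0 without clusters 0 and 1 and the highest possible subtraction.

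All 31 members are given. Of each other list, the text names at most 4 called genes per comparison with the largest ratios, and up to 3 markers per list. The members and lists were chosen with earlier results of these data known.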

Additional observations from a re-analysis of the deposited data

Results flagged for a closer look

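Barcodes of the day 5 library with 500 to 1000 UMIs, which are outside every comparison of libraries, carried both arms above the level of the called cells. The ATF4 arm summed to 390 CPM in them against 176 CPM in cells, and the ER arms to 5961 CPM against 2117 CPM. With no fold or interval limit applied, all 15 members of the ER arms had a larger CPM in these barcodes than in the cells. MANF was at 367 against 92.7 CPM and EDEM1 at 17.8 against 13.9 CPM, while the sensor ATF6 was at 114 against 115 CPM. The same share over all genes was not computed, so the count is not read as particular to these arms. What these barcodes hold was not tested.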

How the results depend on the processing

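The difference of the arm medians kept its sign under every alternative run, and moved beyond counting error to -0.91 (thinned to 1000 UMIs) and -1.13 (mean per-cell CPM) for day 3 over day 0 and to -1.64 (without the 5% of cells with most UMIs) for day 5 over day 0. Counts of members moved as follows, and the cause was not tested where none is given. For day 3 over day 0, the ATF4 arm had 1 higher and 8 lower under TMM and under the median of ratios, and 1 higher at 3-fold. Of all genes compared, 4863 of 10462 were lower under TMM and 4759 of 10471 under the median of ratios. The ER arms had 11 lower under both scalings, 2 lower at 1.5-fold (1 higher) and under the strict filter, 0 lower at 3-fold, 1 higher when thinned, and 3 higher and 0 lower by mean per-cell CPM. For day 5 over day 3, the ATF4 arm had 0 higher at 3-fold. The ER arms had 1 higher at 1.5-fold, 1 lower at 3-fold, 2 lower with every day 5 barcode of 1000 UMIs and 8 lower with the highest subtraction. Of all genes compared, 3305 of 12603 were lower with every day 5 barcode of 1000 UMIs and 4181 of 12659 with the highest subtraction. For day 5 over day 0, the ATF4 arm had 2 higher when thinned and 1 at 1.5-fold, at 5 CPM, by mean per-cell CPM and with totals without mitochondrial, ribosomal protein and MALAT1 UMIs. The ER arms had 12 lower under both scalings, 2 with every day 5 barcode of 1000 UMIs, and 1 at 3-fold, when thinned and by mean per-cell CPM (1 higher). Under TMM the ATF4 arm also had TRIB3, CHAC1 and SESN2 lower. Of all genes compared, 5233 of 12165 were lower under TMM and 5217 of 12145 under the median of ratios. The median log2 ratio of the ER arms changed sign to -1.16 (TMM), -1.12 (median of ratios), -0.25 (strict filter) and -0.03 (without day 0 clusters 0 and 1) for day 3 over day 0, and to 0.23 (thinned), 0.18 (every day 5 barcode of 1000 UMIs) and 0.31 (mean per-cell CPM) for day 5 over day 0. DDIT3 went to -0.03 for day 3 over day 0 under TMM. Counted once per alternative, the ratios of members called in the main setting kept their call 496 times, lost it 41 times and changed sign 1 time. Calls that other members gained under an alternative are not in these counts. The correlation over day 0 cells was 0.15 at 2000 UMIs, 0.01 at 8000, 0.30 unthinned and -0.01 without the fifth of cells lowest in MALAT1. Within clusters 0, 2, 3 and 5 it was -0.03, -0.03, -0.04 and -0.22, the last from 60 cells. Day 3, with the fewest UMIs and 3 UMIs worth 0.160 CPM, sets the precision of both comparisons it enters. With 1 library per group and different preparations, no value here separates the day from the library.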
